A study of Mus musculus with 2 samples.

Results

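Carboxylesterases and conjugating enzymes were compared between a cystic and a control mouse kidney. The genes were taken by symbol alone, and they were the glutathione transferases (Gst), microsomal glutathione transferases (Mgst), UDP-glycosyltransferases (Ugt), cytosolic sulfotransferases (Sult) and carboxylesterases (Ces) that had a probe set annotated to them and to no other gene. The families gave 59 genes, read by 77 probe sets, of 18193 genes on the array. The symbol rule uses no measured value, although it was set with earlier results of these data known. They comprised 20 Gst, 3 Mgst, 10 Ugt, 13 Sult and 13 Ces genes.

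The cystic kidney came from mice homozygous for the inv mutation (inv/inv) that carried the inv-deltaC::GFP transgene, which encodes inversin without its C-terminus, and the control kidney came from +/+ mice with the same transgene. Loss of inversin, a protein of the primary cilium, models nephronophthisis type 2, and both groups carried the truncated protein, so neither is a mouse free of the transgene. The series text gives an age of 4 weeks, and the labels of the cystic array give 28 days and female sex, while those of the control array give neither. Total kidney RNA was read on 1 Affymetrix array per group. The series text speaks of 2 kidneys, and whether an array holds RNA of 1 animal or of several was not clear from it. The promoter that drives the transgene was not given in the sources used here.

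These enzymes make foreign compounds and the body's own lipophilic molecules easier to excrete. Carboxylesterases split esters in the endoplasmic reticulum and expose groups to which a polar residue can be joined. UDP-glycosyltransferases then add a sugar, usually glucuronic acid, sulfotransferases add sulfate from the activated donor PAPS, and glutathione transferases join glutathione to electrophiles. In the kidney much of this work is done in the proximal tubule, whose brush border also breaks glutathione conjugates down on the way to mercapturic acids.

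Values are linear MAS5 signals of a probe set. The median signal served as the floor of an array and was 61.9 for the cystic and 55.4 for the control kidney. A gene under the floor on both arrays was counted as not measured, and where a signal was under the floor on 1 array it was raised to the floor, so that the ratio is a bound. Log2 ratios are cystic minus control, and rose and fell are used only of differences of at least 2-fold. With 1 array per group there is no replicate check and no p-value. The number of arrays limits the precision, and the only repeat measurement is that between probe sets of a gene, whose log2 ratios had a pooled SD of 0.29 over 4694 genes.

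The labels were checked before the families were compared. Invs, the mutated gene, had a signal of 15.9 in the cystic and 118 in the control kidney at the Invs probe set above the floor. Xist, which is transcribed from the inactive X chromosome of females, had 57.4 in the cystic kidney, under the floor, and 387 in the control kidney, while another Xist probe set had 2.3 and 282. The Y-linked genes Eif2s3y, Kdm5d and Uty had 142, 194 and 198 in the cystic kidney, against 132, 152 and 206 in the control kidney. The low Xist signal and the Y-linked signals of the cystic array go against its female label, and the control array carried both kinds of signal. Mouse kidney differs between the sexes in many transporters and enzymes. Of 9 measured genes known to be higher in males 5 fell, and of 4 known to be higher in females 4 fell, with medians of -1.28 and -1.19. The median of the first list was -1.94 with the floor at the 40th percentile, where 1 of its genes rose. It was -0.95 with the floor at the 60th percentile, where 4 of its genes fell. Every result below rests on these 2 arrays, and the part of sex in it was not tested. At the probe set above the floor the Invs signal was lower in the array labelled cystic. The macrophage and fibroblast markers described further on were higher in that array. Whether the 2 arrays were exchanged, which would turn every ratio round, was not tested.

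Of the 59 genes, 36 were measured and 12 of these fell at least 2-fold in the cystic kidney, which is 33.3%. None of the 36 rose at least 2-fold, except that Mgst1 passed the limit with quantile normalization and with loess. Over all 12015 measured genes 3.78% fell and 7.06% rose. The 12 that fell were Ces1d, Ces1e, Ces1f, Ces2b, Ugt2b38, Ugt3a1, Ugt3a2, Sult1c2, Gsta2, Gstk1, Gstm7 and Gstz1, so each family except Mgst had at least 1. The median log2 ratio of the 36 was -0.55, against 0.09 over all measured genes, and 27 of the 36 (75.0%) were below 0, against 42.1% of all measured genes. Of the 12, Ces1e, Ces1f, Ces2b and Gstm7 were under the floor in the cystic kidney and so were measured through the control kidney alone. Among the 28 family members above the floor on both arrays 8 fell (28.6%), against 3.97% of all 10668 such genes. Of the same 28, 20 (71.4%) were below 0, and the matching share of all such genes was not computed. The other 8 measured members were bounds with the cystic signal raised to the floor, and none was a bound in the other direction. Such a bound is below 0 by construction wherever the control signal exceeds the cystic floor. The 75.0% is therefore partly fixed by the floor, and no direction is read from the bounds in it.

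With each array centred on its median, the median of all genes was -0.07, a shift of the whole scale, and 609 genes were then higher and 672 lower past 2-fold, in place of 848 and 454. Under that centring 13 of the 36 fell, the additional one being Gstt2.

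**Figure D1:**
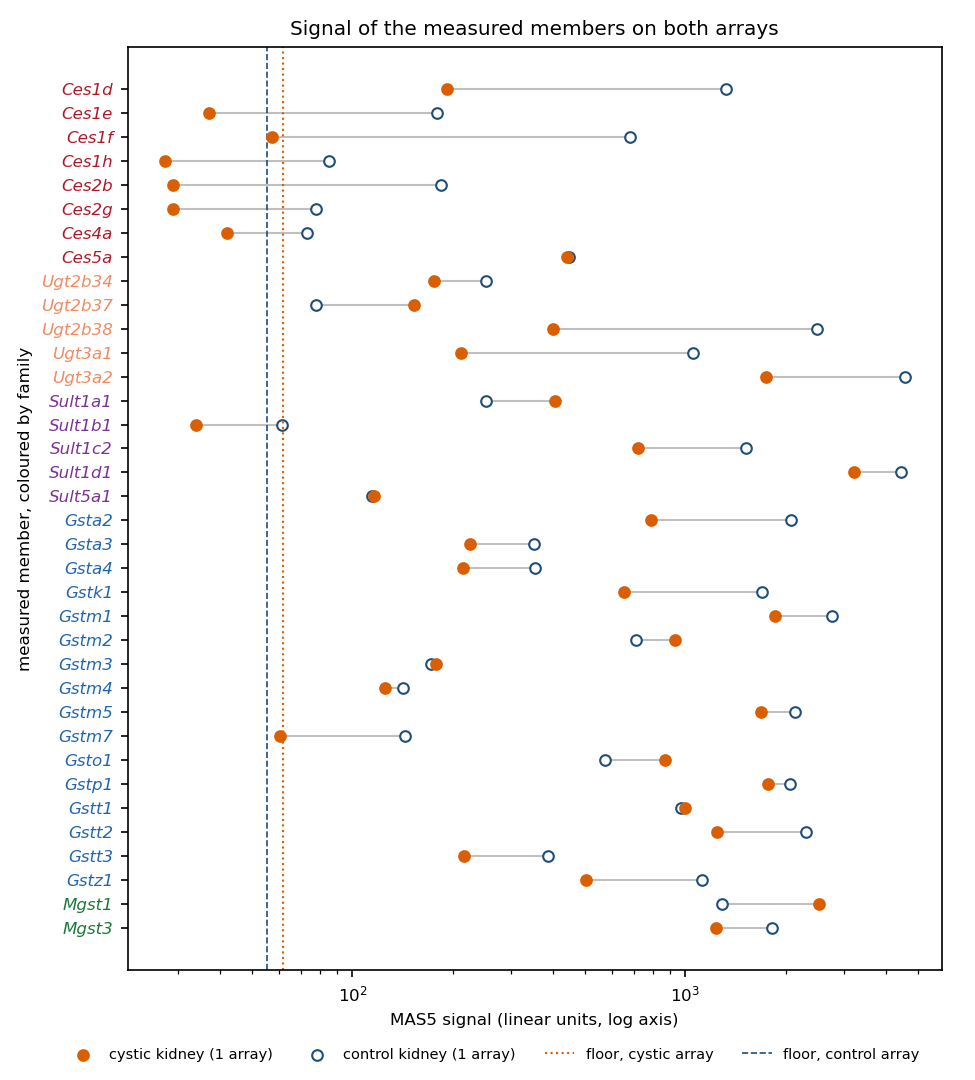
MAS5 signal (log axis) of the 36 measured genes in the cystic (filled) and control (open) kidney, with 1 array each. Dotted and dashed lines mark the floors of 61.9 and 55.4. The cystic signals of 6 carboxylesterases, Sult1b1 and Gstm7 lie under the cystic floor.

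Promoter windows are shown for a fallen member of the Ces, Ugt and Gst families each, for Ugt3a1, and for Mgst1, whose log2 ratio was the highest outside the Ugt family; they were chosen after the values were seen. Each window runs from 250 bases before to 50 bases after the RefSeq transcript start in GRCm38.p6 and is printed 5′ to 3′ on the gene's strand. The windows lie at chr8:93229570-93229869 on the - strand for Ces1e, chr5:87424154-87424453 on the - strand for Ugt2b38, chr15:9279579-9279878 on the + strand for Ugt3a1, chr9:78347096-78347395 on the - strand for Gsta2 and chr6:138140277-138140576 on the + strand for Mgst1, which has 2 windows in the table. Capitals mark matches on either strand to TGACNNNGC, the core of the antioxidant response element bound by Nrf2.
Ces1e: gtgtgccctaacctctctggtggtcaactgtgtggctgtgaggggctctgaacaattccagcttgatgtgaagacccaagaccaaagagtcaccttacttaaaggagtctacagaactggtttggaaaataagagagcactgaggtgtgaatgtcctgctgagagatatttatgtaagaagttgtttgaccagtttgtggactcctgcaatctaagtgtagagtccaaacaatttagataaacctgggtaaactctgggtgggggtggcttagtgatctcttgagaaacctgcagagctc
Ugt2b38: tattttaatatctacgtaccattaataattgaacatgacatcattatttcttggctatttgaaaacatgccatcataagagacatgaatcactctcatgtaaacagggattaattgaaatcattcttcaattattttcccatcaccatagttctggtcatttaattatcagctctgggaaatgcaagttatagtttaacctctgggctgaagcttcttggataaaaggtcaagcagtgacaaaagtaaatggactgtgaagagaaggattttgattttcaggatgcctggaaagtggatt
Ugt3a1: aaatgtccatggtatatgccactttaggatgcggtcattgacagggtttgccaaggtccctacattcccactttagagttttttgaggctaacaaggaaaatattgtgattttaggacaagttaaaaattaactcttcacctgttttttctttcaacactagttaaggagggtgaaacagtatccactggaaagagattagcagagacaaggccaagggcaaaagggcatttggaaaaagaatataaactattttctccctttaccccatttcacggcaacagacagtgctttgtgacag
Gsta2: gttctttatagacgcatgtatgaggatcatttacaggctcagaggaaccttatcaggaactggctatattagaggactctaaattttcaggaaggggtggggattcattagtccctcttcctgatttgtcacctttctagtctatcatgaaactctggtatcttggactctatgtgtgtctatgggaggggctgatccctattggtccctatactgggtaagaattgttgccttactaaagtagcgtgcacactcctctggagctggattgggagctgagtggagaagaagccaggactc
Mgst1: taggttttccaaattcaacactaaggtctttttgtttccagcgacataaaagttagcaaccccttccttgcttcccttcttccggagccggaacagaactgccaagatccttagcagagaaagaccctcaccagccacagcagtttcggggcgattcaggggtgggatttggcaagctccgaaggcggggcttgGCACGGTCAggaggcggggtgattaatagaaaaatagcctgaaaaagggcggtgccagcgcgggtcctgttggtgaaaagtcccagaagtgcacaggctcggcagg
Among these windows Mgst1 holds the antioxidant core, 56 bases before the start and on the opposite strand, and the other windows hold no match. Sequence outside the windows was not searched, so a window without a match does not show that the gene lacks the element.

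Windows were present for 51 of the 59 genes, 63 in all, and counts are given for 6 motifs on both strands. The windows of 1 chromosome were left out before counting, so all windows here means those of the other chromosomes. TGACNNNGC was found in 4 of the 63 (6.35%), those of Gsta3, Gstm5, Gstm7 and Mgst1, against 12.4% of all 32851 windows. Of 2 forms of the HNF4 motif, CAAAGT was in 25.4% of the families' windows, against 14.4% of all, and CAAAGTCCA, which contains it, in 1 window, against 0.475%. The TATA motif TATAAA was in 19.0%, against 13.6%. The C/EBP motif TTNNGCAA was in 23.8%, against 10.8%, and its stricter form TTGCGCAA in 0, against 0.183%. These shares cover all family genes with a window, also those that were not measured. Among the genes that fell, Gstk1 alone held CAAAGT, Sult1c2 alone held TTNNGCAA and Gstm7 alone held TGACNNNGC. TATAAA was held by Gsta2, Gstm7 and Ugt3a1 among them. How many of the fallen genes have a window was not counted. Windows of paralogs resemble each other, so these are not independent, and a match is only a match of letters.

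Carboxylesterases held the lowest log2 ratios. Of 13 Ces genes 8 were measured and 4 of them fell, with a median of -0.999 in which 6 values are bounds. Ces1f, a microsomal esterase of the Ces1 group, had a signal of 57.2 in the cystic and 680.5 in the control kidney. The cystic signal was under the floor, so Ces1f was at least 10.99-fold lower, at a probe set of a type that can bind related transcripts. Ces1d, also known as a triacylglycerol hydrolase, had 192 in the cystic and 1327 in the control kidney and was 6.92-fold lower. The other Ces1d probe set above the floor on both arrays gave 158 and 1444, a log2 ratio of -3.19 beside -2.79, and so both read the same direction within 2 pooled SDs. Ces1e, which is egasyn, the esterase that holds part of the β-glucuronidase in the endoplasmic reticulum of mouse liver, had 37.2 in the cystic and 179 in the control kidney and was at least 2.90-fold lower. Ces2b had 28.9 in the cystic and 184 in the control kidney and was at least 2.98-fold lower.

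The remaining measured carboxylesterases lay nearer the floor or did not differ. Ces1h had 27.3 in the cystic and 85.3 in the control kidney, Ces2g 28.9 and 77.7, and Ces4a 42.1 and 73.1, which bounds them as at least 1.38-fold, 1.26-fold and 1.18-fold lower without showing whether they passed 2-fold. Ces5a, known as cauxin from the urine of cats, had 441 in the cystic and 447.5 in the control kidney, a log2 ratio of -0.02, at a probe set of a type that can bind related transcripts. Neither of the other 2 Ces5a probe sets passed the floor on either array, so this value is uncertain. Ces1c, Ces1g, Ces2a, Ces2e and Ces2f were not measured, with signals of at most 24.5 in the cystic and 43.9 in the control kidney.

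Of the 10 Ugt genes 5 were measured, 3 fell, and the median was -1.38. Ugt2b38, a glucuronosyltransferase, had 400.0 in the cystic and 2484 in the control kidney and was 6.21-fold lower. Ugt3a1, whose human counterpart transfers N-acetylglucosamine, had 211.5 in the cystic and 1057.5 in the control kidney and was 5.0-fold lower, and its other probe set gave 176 and 1169, a log2 ratio of -2.73 beside -2.32. Ugt3a2, whose human counterpart uses UDP-glucose and UDP-xylose, had 1748 in the cystic and 4559 in the control kidney and was 2.61-fold lower. Both Ugt3a genes therefore fell.

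Within the Ugt2b group the members did not move alike. Ugt2b37 had 153 in the cystic and 77.5 in the control kidney, a log2 ratio of 0.98 that is just under 2-fold and opposite in sign to Ugt2b38. Ugt2b34 had 175 in the cystic and 253 in the control kidney at its brightest probe set, a log2 ratio of -0.53, and 74.4 and 149 at the other, a ratio of -1.002 at the 2-fold limit. The brightest Ugt2b34 probe set is of a type that can bind related transcripts. Ugt2a3, Ugt2b1, Ugt2b35, Ugt2b36 and Ugt2b5 were not measured, with signals of at most 24.5 in the cystic and 31.8 in the control kidney.

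Sulfotransferases showed no common direction. Of 13 Sult genes 5 were measured, 1 fell, and the median was 0.01, a value that rests on a bound and was below 0 with each array centred on its median (-0.15), with quantile normalization (-0.19) and with loess (-0.14). Sult1c2 had 722 in the cystic and 1519 in the control kidney and was 2.10-fold lower. Sult1d1, which in mice sulfates dopamine and other catecholamines, had 3211 in the cystic and 4431 in the control kidney, a log2 ratio of -0.46, and its other probe set gave -0.47. Sult1a1, a phenol sulfotransferase, went the other way with 406 in the cystic and 253 in the control kidney, a log2 ratio of 0.68. Sult5a1 had 116 and 115, a log2 ratio of 0.02.

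The Sult1b1 signal of 33.8 in the cystic kidney was under the floor and that of 61.5 in the control kidney lay between the floors, so no direction is read from it. Sult1c1, Sult1e1, Sult2a2, Sult2a8, Sult2b1, Sult3a1, Sult4a1 and Sult6b1 were not measured, with signals of at most 45.4 in the cystic and 29.2 in the control kidney. The oestrogen sulfotransferase Sult1e1 had 4.0 and 3.4.

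**Figure D2:**
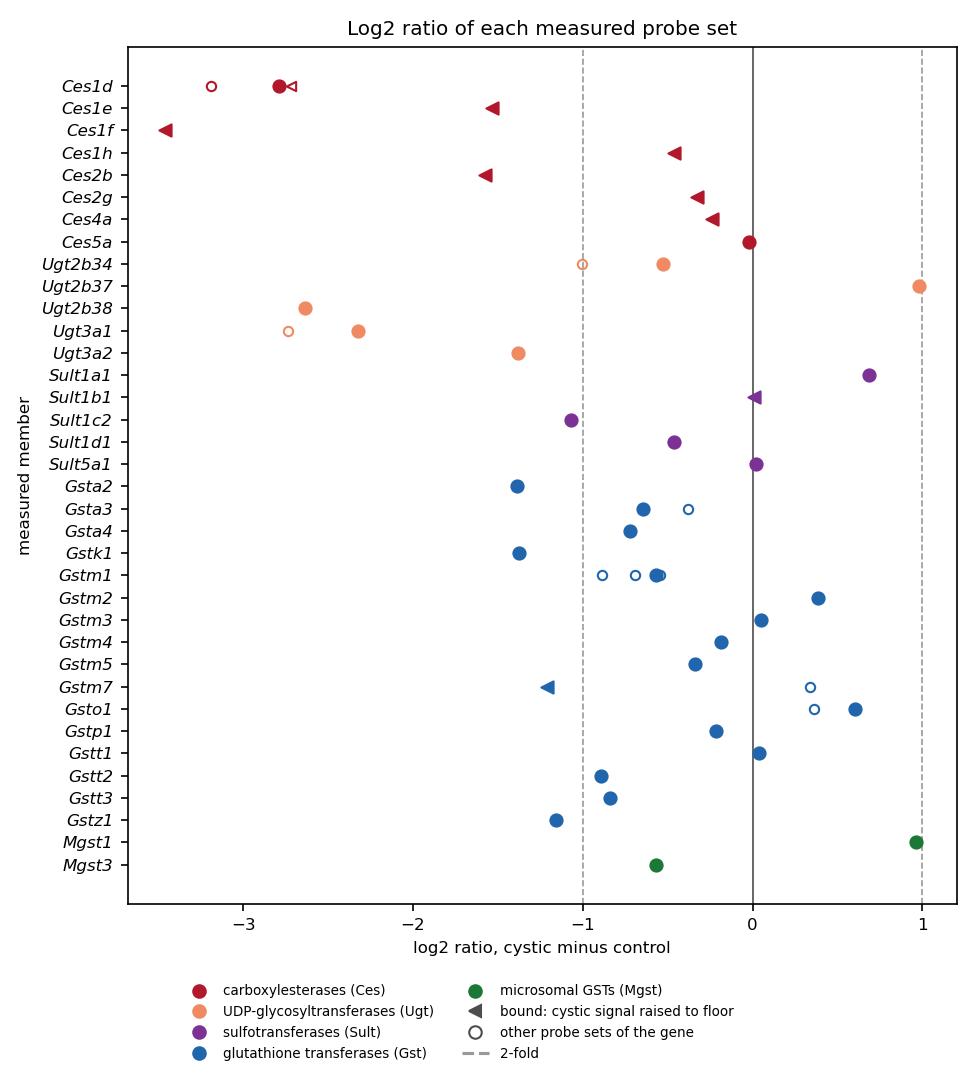
Log2 ratio (cystic minus control) of every measured probe set of the 36 genes, coloured by family. Filled symbols are the probe sets used, open symbols other probe sets of the gene, triangles bounds, and dashed lines 2-fold. Ces1d and Ugt3a1 lie left of the 2-fold line at each measured probe set, and Gstm7 lies on both sides of 0.

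Soluble glutathione transferases were the largest family measured, with 16 of 20 genes. Of these 4 fell and none rose, and the median was -0.61. Gsta2, an alpha-class transferase, had 790 in the cystic and 2071 in the control kidney and was 2.62-fold lower. Gstk1, the kappa-class transferase of mitochondria and peroxisomes, had 652 in the cystic and 1695 in the control kidney and was 2.60-fold lower. Gstz1, which is the maleylacetoacetate isomerase of tyrosine breakdown, had 504 in the cystic and 1124 in the control kidney and was 2.23-fold lower. Gstm7 was the fourth, with 60.7 in the cystic and 143 in the control kidney at its brightest probe set, at least 2.32-fold lower, but its other probe set gave 85.3 and 67.6, a log2 ratio of 0.34. The Gstm7 probe sets disagree by 1.55 on the log2 scale, over 2 pooled SDs, so its fall rests on 1 of 2 probe sets.

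The other alpha-class genes had lower signals that stayed under 2-fold. Gsta4, which conjugates the lipid aldehyde hydroxynonenal, had 215 in the cystic and 355 in the control kidney (log2 ratio -0.72), and Gsta3 had 225 and 352 (-0.65). In the theta class Gstt2 had 1243 in the cystic and 2304 in the control kidney (-0.89) and Gstt3 had 216 and 386 (-0.84). Gstt1 stood apart from them with 997 in the cystic and 971 in the control kidney (0.04).

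The mu class lay closer to 0. Gstm1 had 1861 in the cystic and 2765 in the control kidney, a log2 ratio of -0.57, and its other 3 probe sets were all lower in the cystic kidney, with ratios between -0.89 and -0.55. Gstm5 had 1685 and 2128 (-0.34) and Gstm4 124.9 and 142 (-0.19), while Gstm3 had 178 and 172 (0.05) and Gstm2 929 in the cystic and 711 in the control kidney (0.39). Only Gstm7 of the 6 measured mu-class genes passed 2-fold. Mu-class transcripts are closely alike in sequence, so their separate values are uncertain.

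Gstp1, the pi-class transferase, had 1777 in the cystic and 2060 in the control kidney (-0.21). Gsto1, an omega-class enzyme that reduces dehydroascorbate, had 871 in the cystic and 573 in the control kidney, the highest log2 ratio of the soluble transferases at 0.60, and its other probe set gave 0.36. Gstm6, Gsto2, Gstp3 and Gstt4 were not measured, with signals of at most 45.8 in the cystic and 52.1 in the control kidney.

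The membrane-bound transferases split. Mgst1, an enzyme of the endoplasmic reticulum and the outer mitochondrial membrane, had 2513 in the cystic and 1292 in the control kidney and was 1.95-fold higher, just under the limit. Its log2 ratio was 0.96, and it was 1.10 with quantile normalization and 1.09 with loess. Mgst3 had 1232 in the cystic and 1826 in the control kidney, a log2 ratio of -0.57. Mgst2 was not measured, with 22.0 and 36.8. The single other Mgst1 probe set was under the floor on both arrays.

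**Figure D3:**
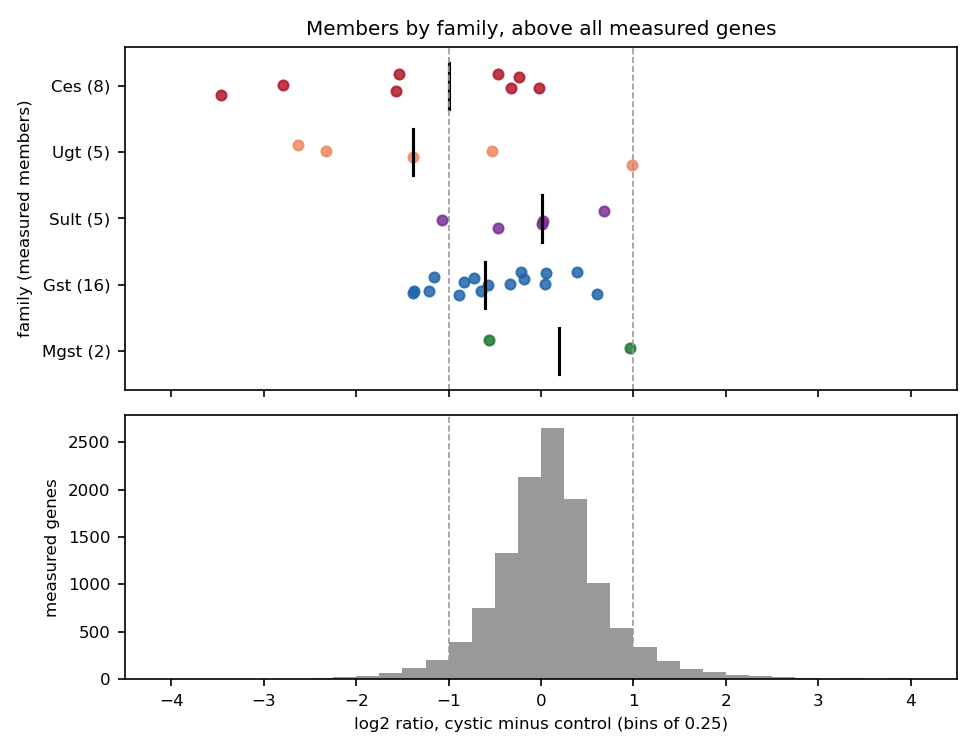
Top, log2 ratio (cystic minus control) of the measured genes by family, with a black bar at each family's median (-0.999 for Ces, -1.38 for Ugt, 0.01 for Sult, -0.61 for Gst and 0.20 for Mgst) and vertical jitter without meaning. Bottom, all 12015 measured genes in bins of 0.25, centred near 0, with dashed lines at 2-fold.

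Many of these genes lie in tandem in the genome, which the choice by symbol did not use. In the RefSeq table of GRCm38.p6, which holds 86 genes that fit the symbols, 13 groups of neighbours were found with at most 2 other coding genes between members, and 6 of them had 2 or more measured members. The Ces1 group with Ces5a had 5 measured genes, 3 of which fell, with log2 ratios from -3.46 for Ces1f, a bound, to the uncertain -0.02 of Ces5a. Ugt3a1 and Ugt3a2 are neighbours and both fell. The group that joins the Ugt2 genes to Sult1b1, Sult1d1 and Sult1e1 had 5 measured genes with ratios from -2.63 for Ugt2b38 to 0.98 for Ugt2b37, and 1 fell. The Ces2 group with Ces4a had 3 measured genes, all bounds, from -1.57 for Ces2b to -0.24 for Ces4a. The Gstm group spanned -1.21, a bound, to 0.39 and the Gstt group -0.89 to 0.04. Neighbours thus both had ratios below 0 in the Ugt3a group, and lay on both sides of 0 in the Ugt2, Gstm and Gstt groups. All ratios of the Ces1 and Ces2 groups were below 0 too. Those of Ces1e, Ces1f, Ces1h and the whole Ces2 group were bounds with the cystic signal raised to the floor. A control signal above the cystic floor then gives a ratio below 0 by construction, so no shared direction is read from these bounds.

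Proximal tubule markers, other than family members, were lower in the cystic kidney beside these enzymes. All 13 had log2 ratios below 0, 10 passed 2-fold downwards, and the list had a median of -1.07, a range from -1.87 to -0.52, and a summed signal of 34244 in the cystic and 68249 in the control kidney. With loess 4 and with quantile normalization 5 of the 13 fell. In whole kidney RNA fewer cells of a type and less RNA per cell cannot be told apart. Ces1f, a bound, and Ces1d, Ugt2b38 and Ugt3a1 had lower log2 ratios than each of the 13 markers, of which Slc22a12, the urate transporter, was the lowest (-1.87). The families were not alone in this. Genes outside them and outside the marker list were also lower than each marker, among them Slc22a7 (-2.89), Acy3 (-2.55) and Slc22a6 (-2.06). All these values are those of the brightest probe sets. At another probe set Acsm2 had -2.09, Slc5a2 -1.91 and Slc22a12 -1.40, so the order of the markers depends on the probe set.

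Markers of other cells moved the other way or were near the floor. Of 10 macrophage markers 8 rose and none fell (median 2.42, summed signal 9088 in the cystic and 2169 in the control kidney), and all 8 fibroblast markers rose (median 1.93, 23891 and 5840). Of 8 liver markers 4 were measured, and of 7 adrenal and 4 adipose markers 2 and 1 were, with none past 2-fold. No direction is read from the liver list, since 3 of its 4 measured values are bounds with the cystic signal raised to the floor, and its median was 0.05, against -0.47 with the floor at the 40th percentile and -0.23 with no floor. Albumin (Alb), the defining gene of liver, had 91.7 in the cystic and 65.8 in the control kidney, while Apoa2 had 42.0 and 78.6, Apob 17.9 and 59.0, and Cps1 47.8 and 60.8. The adrenal genes Cyp21a1 and Star had 92.8 and 74.1 in the cystic kidney, against 82.2 and 59.9 in the control kidney, and the fat gene Retn had 121 and 75.5. The adrenal genes Cyp11a1 and Cyp11b1 and the fat gene Adipoq were under the floor on both arrays. The part of the shift in cell types in the lower enzyme signals was not tested.

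Genes that feed or finish conjugation were counted from lists chosen with earlier results of these data known. In glutathione supply and mercapturate formation 5 of 10 measured genes fell, none rose, and the median was -0.96. Acy3, an aminoacylase that acts on mercapturates, had 715 in the cystic and 4184 in the control kidney, a log2 ratio of -2.55. Dpep1, the renal dipeptidase, had -1.65, the glutathione synthetase Gss -1.38 and the acetyltransferase Nat8 of the last mercapturate step -1.28. Ggt5, a transferase that cleaves glutathione conjugates, had 0.32.

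In glucuronate supply and turnover 2 of 8 fell and 1 rose, with a median of -0.53. Ugdh, which makes UDP-glucuronic acid, had 1162 in the cystic and 1645 in the control kidney, a log2 ratio of -0.50. Miox and Dcxr, also of this list, fell with -1.56 and -1.44. Gusb, the β-glucuronidase that removes glucuronic acid, had 454 in the cystic and 215 in the control kidney and rose 2.11-fold, with a log2 ratio of 1.69 at its other probe set, while Ces1e, whose product binds it, fell. The Gusb ratio of its brightest probe set passed 2-fold in none of the 3 other scalings.

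In sulfate supply and activation 3 of 8 fell, none rose, and the median was -0.23, against -0.39 with each array centred on its median. With the median over probe sets, and without shared probe sets, 1 gene of the list rose. Papss2, a synthase of PAPS, had -1.42 and -0.52 at its other probe set, the sulfate transporter Slc26a1 -1.20 (-0.81 at the other) and the phosphatase Bpnt1, which removes the spent donor, -1.19 (-0.99 at the other). Papss1 had -0.19, and the sulfate transporter Slc13a1 0.71 (1.73 at the other).

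Of other conjugating transferases 3 of 8 fell, with a median of -0.63 that was -0.42 with the floor at the 40th percentile, -0.39 with no floor and -1.01 without shared probe sets, and 2 fell in the last 2 of these settings and with the median over probe sets. Those 3 were the methyltransferases Inmt (-2.01) and Tpmt (-1.02, and -0.62 at its other probe set) and the glycine conjugating enzyme Glyat (-1.28), while Ltc4s, the leukotriene C synthase, had 0.52. Of other ester and epoxide hydrolases 4 of 7 fell, with a median of -1.12 that was -0.51 with the floor at the 40th percentile, -0.47 without shared probe sets and -0.008 with no floor. The 4 were Cmbl (-1.72), the soluble epoxide hydrolase Ephx2 (-1.31), Bphl (-1.24) and the arylacetamide deacetylase Aadac (-1.12). Pon2 and Pon3, of the paraoxonase family, had 0.85 and 0.28, and the microsomal epoxide hydrolase Ephx1 0.18.

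Of transporters of conjugates and organic anions 4 of 12 fell, or 6 with each array centred on its median, with a median of -0.83. The 4 were the organic anion carriers Slc22a7, Slc22a6, Slc17a3 and Slc22a8, with log2 ratios between -2.89 and -1.83. Slc22a8, at -1.83, had -1.09 at its other probe set. The export pumps of the Abcc family went both ways, with Abcc5 at 0.77 (0.08 at its other probe set), Abcc1 at 0.49 and Abcc2 at a bound of -0.79, and Abcg2 had -0.999, just under 2-fold.

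Among transcriptional regulators of conjugation 1 of 10 fell, with a median of 0.10 that was below 0 in each of the 3 other scalings. With each array centred on its median, and without shared probe sets, 2 fell. The 1 was the oestrogen receptor Esr1 (-1.08, and -0.67 at its other probe set). Hnf4a, a nuclear receptor of proximal tubule and liver, had 1862 in the cystic and 3559 in the control kidney (-0.94, and -1.25 at the other), the aryl hydrocarbon receptor Ahr 0.92, Bach1, a repressor of Nrf2 targets, 0.65, and Nfe2l2, which encodes Nrf2, 0.37 (-0.29 at the other). Of Nrf2 targets outside the families 1 of 7 fell, the malic enzyme Me1 (-1.67), with a median of -0.45, or 2 with each array centred on its median and with the median over probe sets, and Hmox1 had 0.94 and Nqo1 -0.56. The receptors Nr1i2 and Nr1i3 were not measured.

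**Figure D4:**
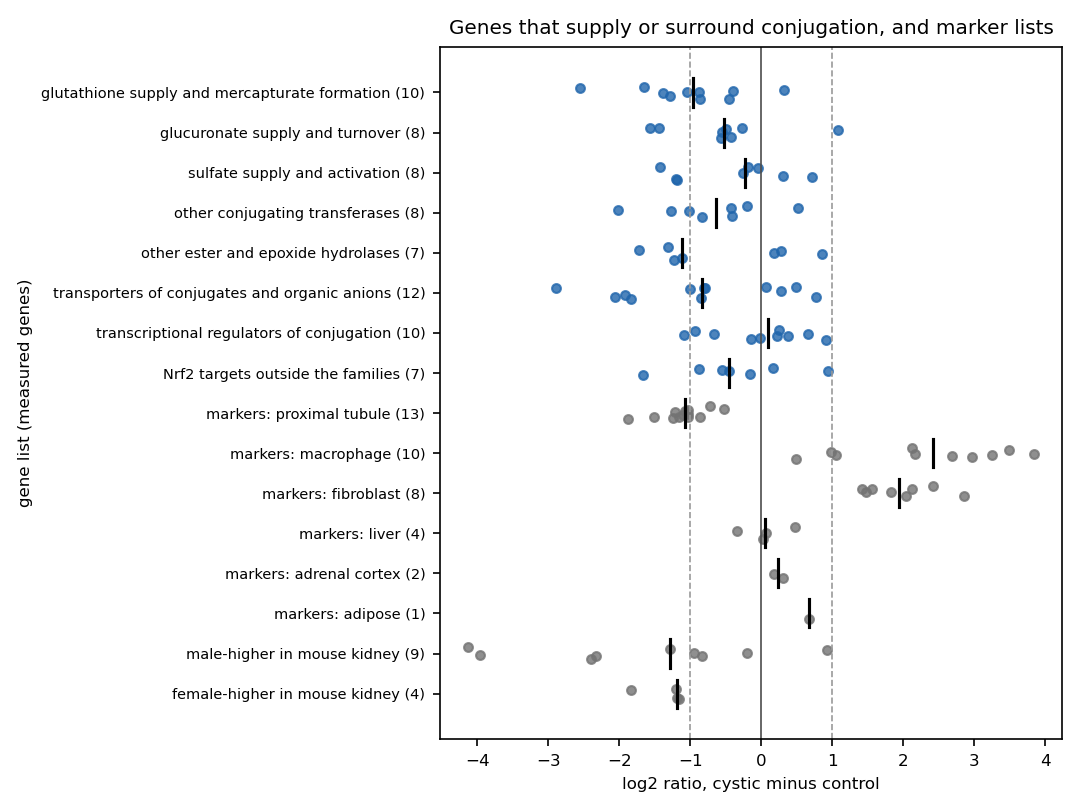
Log2 ratio (cystic minus control) of the measured genes in lists around conjugation (blue) and in marker and sex-biased lists (grey), with a black bar at each median and dashed lines at 2-fold. Proximal tubule markers lie below 0 (median -1.07), and macrophage and fibroblast markers above it (2.42 and 1.93).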

How the data were processed

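The authors deposited 1 table of MAS5 signal, a linear intensity per probe set, per the labels, which name MAS5 with no version; neither a scaling target nor detection calls were given there. Of 45101 probe sets 64 were controls and were left out. Groups were read from the sample titles, with 1 array each, and no paired or replicate test applies. The deposited scaling was kept, since the 2% trimmed means were 181 for the cystic and 178 for the control kidney. Names came from the platform annotation and were updated by gene identifier through a RefSeq table of GRCm38.p6: 34945 named 1 gene, 932 several and 9160 none, and identifiers of 34741 matched. All 77 family probe sets matched, and no family symbol changed. Each gene was read at its brightest probe set (mean log2 signal, floors applied) among those naming it alone. Genes were counted at a fixed 2-fold difference.

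The family members and the other gene lists were chosen with earlier results of these data known. Each measured member past 2-fold is named, and from each other list up to 4 members in the direction of its median and 2 in the other, with further genes chosen after their values were seen. Lists were described by counts and medians beside all measured genes. Some listed genes were not analysed here. The calculation was tested on simulated data, with Python 3.11.15, numpy 2.4.6, pandas 2.3.3 and statsmodels 0.14.6. The alternatives were 3 other scalings, 4 other floors and 2 other ways of choosing probe sets.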

Additional observations from a re-analysis of the deposited data

How the results depend on the processing

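No paired analysis was possible because each group has 1 array and the labels carry no replicate numbers, and no replicate could be left out. Under 9 alternatives between 9 and 14 family members fell, and 12 of 36 (33.3%) as reported. The lowest count was 9 of 32 (28.1%, against 3.84% of all genes), with the floor at the 60th percentile. The highest count was 14 of 59 (23.7%, against 3.68%), with no floor and 16 added to each signal, and it was the lowest share. The highest share was 13 of 36 (36.1%, against 5.59%), with each array centred on its median. The number that rose was 0 as reported and 1 with quantile normalization and with loess, in both cases Mgst1. The median of the measured members was between -0.71 and -0.46 throughout. The Ugt median was -0.34 with no floor, which brings in genes of low signal, and the Mgst median was -0.47 with no floor, which adds Mgst2, and -0.57 without probe sets marked as shared, which leaves Mgst3. Another floor cannot change a gene whose signals both lie above it, so some of the values were fixed in advance. Of 105 values of the 12 fallen genes none changed sign and 5 were under 2-fold. These were Ces1e (-0.83), Ces2b (-0.87) and Gstm7 (-0.51) with the floor at the 60th percentile, which raises the bound, Gstm7 with the median over probe sets (-0.44) and Sult1c2 with loess (-0.996). Without shared probe sets Ces1f, Gsta2 and Gstz1 had no reading, and 10 of 28 genes fell, Ugt2b34 among them. Signals near the floor limit what can be seen of 23 genes that were not measured and of 8 read only as bounds.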

Other observations

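Several probe sets annotated to more than 1 gene of these families were left out of the comparison, since they name no single gene. A group of 3 probe sets annotated jointly to 8 genes of the Ugt1a cluster, whose transcripts share their last exons, had signals of 4795, 8179 and 3217 in the cystic kidney, against 7008, 9641 and 4880 in the control kidney. Their log2 ratios of -0.55, -0.24 and -0.60 were below 0 and under 2-fold, so the joint Ugt1a signal differed less than those of Ugt2b38, Ugt3a1 and Ugt3a2. The brightest of the 3, with the ratio of -0.24, lay near the highest signals of the arrays, 10935 in the cystic and 10910 in the control kidney. Whether signals this high still follow the amount of RNA was not tested. A probe set annotated to 3 alpha-class glutathione transferase genes had 578.5 in the cystic and 1840.1 in the control kidney, a log2 ratio of -1.67, in the same direction as Gsta2. Probe sets annotated jointly to 2 Ugt2a genes and to 2 Ces3 genes were under the floor on both arrays. Which of the joint genes carried each signal was not tested.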
